A study of Gallus gallus and Columba livia with 18 samples.

Results

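BMP2, BMP4, FGF19, FST and ISM1 encode secreted signals and secreted signal antagonists, and their RNA levels were followed in the developing retina of 2 birds. All rows carrying 1 of these 5 symbols were taken, 4 in the pigeon table and 5 in the chicken table, 9 of the 41360 rows in all. In pigeon, BMP2 stood in 2 rows, here told apart by their scaffold (scaffold274 and scaffold451), while BMP4 and FGF19 were not matched by name there. Below, the scaffold451 row is set beside chicken BMP4, and another pigeon row beside chicken FGF19. Both pairs were chosen by position after the values were seen, and whether they are the same genes was not tested. Whole retinas were dissected from pigeon (Columba livia) and chicken (Gallus gallus) embryos incubated at 37 °C, with no treatment named in the labels, at E3 (days 3 to 3.5), E5 (days 5 to 5.5) and E8 (days 8 to 8.5). Each of the 6 groups of species and stage had 3 mRNA libraries, 18 in all, and each library was made from 1 to 6 retinas. The deposited tables give 1 pooled FPKM (fragments per kilobase of transcript, scaled by the total of mapped fragments) for each gene and stage. No value below therefore has a replicate check, an SD or a p-value, and the spread between embryos is unknown.

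Bone morphogenetic proteins (BMPs) bind pairs of serine/threonine kinase receptors, which phosphorylate SMAD transcription factors, and BMP4 made in the dorsal optic cup is known to switch on dorsal genes such as TBX5. Fibroblast growth factors (FGFs) act through receptor tyrosine kinases and the ERK pathway, and FGF19 is the bird counterpart of mouse Fgf15. Follistatin, the product of FST, binds activins and more weakly some BMPs and keeps them from their receptors, and isthmin 1, the product of ISM1, is a secreted protein with a thrombospondin repeat that has been described in chick as an antagonist of nodal.

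Changes are differences of log2(FPKM + 1) between 2 stages, which understate the change of low genes. A gene entered a comparison when its FPKM reached 1 at some stage and was above 0 at both stages compared, and it was counted as higher or lower when its change was at least 1 in size. All 9 member rows entered every comparison. The median change over all compared genes lay between −0.01 and 0.00 in the 6 comparisons.

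The antagonists FST and ISM1 were lower at E5 than at E3 in both species, ISM1 in both and FST in pigeon were lower again at E8, BMP4 in chicken was lower mainly after E5, FGF19 in chicken was higher at E8, and the BMP2 rows went different ways. At E5 against E3, 0 of the 4 pigeon rows were higher and 2 were lower by at least 1, where 1.51% of all compared pigeon genes were higher and 1.36% were lower. In chicken, 1 of the 5 rows was higher and 2 were lower at E5, where 1.97% of genes were higher and 1.00% were lower. At E8 against E5, 1 pigeon row was higher and 3 were lower, against 8.04% and 7.25% of pigeon genes, and 1 chicken row was higher and 2 were lower, against 4.53% and 4.46% of chicken genes. Chicken FST had a lower FPKM at E8 too, but from 0.264 at E5 it could not be counted as lower. Over the whole interval, E8 against E3, 1 pigeon row was higher and 3 were lower, against 9.39% and 8.58% of genes. In chicken, 1 row was higher and 3 were lower over that interval, against 6.65% and 5.29% of genes. With a pseudocount of 5 in place of 1, no chicken row reached 1 in size at E5 against E3, and some calls of FST and ISM1 in the other comparisons were lost, as given with each gene. The members were picked with earlier results of these data known, so these counts describe them and are not a test of them.

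**Figure D1:**
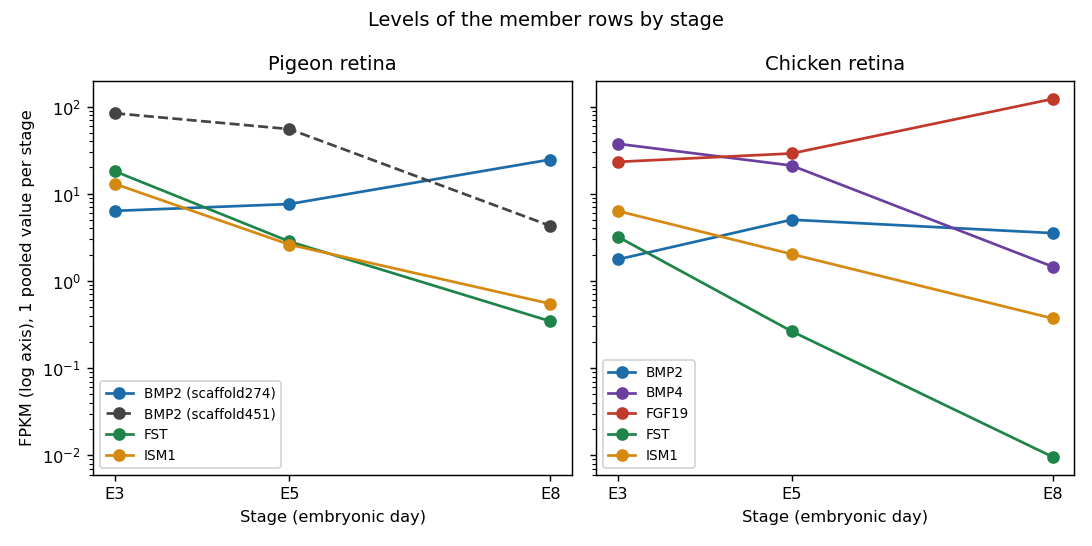
FPKM (log axis) of the 4 pigeon rows (left) and 5 chicken rows (right) against embryonic day, with 1 pooled value per point and no error bars because there is 1 value per stage. The points of FST and ISM1 are lower at each later stage in both panels, where the E8 value of chicken FST (0.00958) is near the floor of its table, BMP2 on scaffold451 in pigeon and BMP4 in chicken are lowest at E8, and FGF19 in chicken reaches 122 FPKM at E8.

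BMP4 was the most abundant of the 5 members in the chicken retina at E3 and stood below FGF19 and BMP2 at E8. Its FPKM was 37.4 at E3, 21.1 at E5 and 1.46 at E8. On the log2(FPKM + 1) scale most of the net change lay after E5, with 20.2% of it reached by then. The log2 change was −0.80 at E5 against E3, −3.17 at E8 against E5 and −3.97 over the whole interval. The last of these ranked 13th from the lowest of 14451 compared chicken genes, and on the plain FPKM scale the level at E5 was 14.4-fold that at E8. The BMP4 row lies on chromosome 5 from 61149845 to 61153194 (XLOC_018268). No genome build is stated in the labels or file headers, and coordinates are those of the authors' tables.

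BMP2, a close relative of BMP4, was low in chicken and highest at the middle stage. Its FPKM was 1.76 at E3, 5.03 at E5 and 3.53 at E8 (XLOC_014273, chromosome 3 from 16009427 to 16013578). The change at E5 against E3 was 1.13, the 213th highest of 14490, and that at E8 against E5 was −0.41, below the size counted. With a pseudocount of 5 the first of these was 0.57, also below it. BMP2 was thus the lowest of the 5 chicken members at E3 and the second highest at E8.

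The 2 pigeon rows named BMP2 went in opposite directions. The row on scaffold274 (Cli_R006577, from 232448 to 233290) had an FPKM of 6.36 at E3, 7.61 at E5 and 24.6 at E8, and its change at E8 against E5 was 1.57. The row on scaffold451 (Cli_R010390, from 359212 to 361232) had 83.6 at E3, 55.1 at E5 and 4.28 at E8. Its change at E8 against E5 was −3.41, the 34th lowest of 11820 compared pigeon genes, and that over the whole interval was −4.00, the 27th lowest of 11785. The scaffold451 row was the highest of the 4 member rows in pigeon at E3, and the scaffold274 row was the highest at E8. Summing both rows, as a count per symbol would do, gave a change of −1.09 at E8 against E5, opposite in sign to that of the scaffold274 row.

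The order of neighbouring genes differed between these rows. Of the 10 rows nearest the BMP2 row on scaffold274, 2 (FERMT1 and LRRN4) are among the 20 protein-coding genes that flank BMP2 in the RefSeq annotation of the chicken (assembly GRCg7b, used for names and order alone), and 0 are among those that flank BMP4. Of the 4 other rows on scaffold451 within reach, 2 (FERMT2 and DDHD1) are among the 20 flanking BMP4, and 0 are among those flanking BMP2. On the other side of the scaffold451 row the table lists CDKN3. No sequence was compared, so which gene the scaffold451 row holds was not tested, and it keeps here the name that the authors' table gives it. Its comparison with chicken BMP4 was chosen after the values were seen. Pigeon BMP2 on scaffold451 and chicken BMP4 had changes of −0.59 and −0.80 at E5 against E3, −3.41 and −3.17 at E8 against E5, and −4.00 and −3.97 over the whole interval. Set beside chicken BMP2, the same pigeon row differed by −1.72 at E5 against E3 and by −3.00 at E8 against E5 (pigeon minus chicken).

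FGF19 was the most abundant chicken member at E5 and at E8. Its FPKM was 23.2 at E3, 29.0 at E5 and 122 at E8 (XLOC_017943, chromosome 5 from 18743569 to 18748606). The change was 0.31 at E5 against E3 and 2.04 at E8 against E5, the 75th highest of 14540, with 13.1% of the net change reached by E5. At E8 the FPKM was 4.22-fold that at E5, and FGF19 stood 34.6-fold above BMP2, the next member in the order of FPKM at that stage.

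FGF19 was not matched by name in pigeon, and a row found by its position, after the values were seen, is given here as it stands. The pigeon row Q9DDN0_CHICK (Cli_R011133, scaffold503 from 1555587 to 1558697, a model of 441 bases) bears a name of the form of a chicken protein record in place of a gene symbol. That record was not looked up. It lies between a row named FGF6 on one side and rows named Q5ZK53_CHICK and CCND1 on the other, and 7 of the 20 rows around it are among the 20 genes that flank FGF19 in the RefSeq annotation. In the chicken table FGF19 lies between ORAOV1, with CCND1 beyond it, and FGF4. The pigeon row had an FPKM of 25.3 at E3, 34.5 at E5 and 179 at E8, with changes of 0.43 at E5 against E3 and 2.34 at E8 against E5. Its pigeon minus chicken differences from FGF19 were 0.12 and 0.30 in these comparisons. Whether it is the pigeon FGF19 was not tested.

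**Figure D2:**
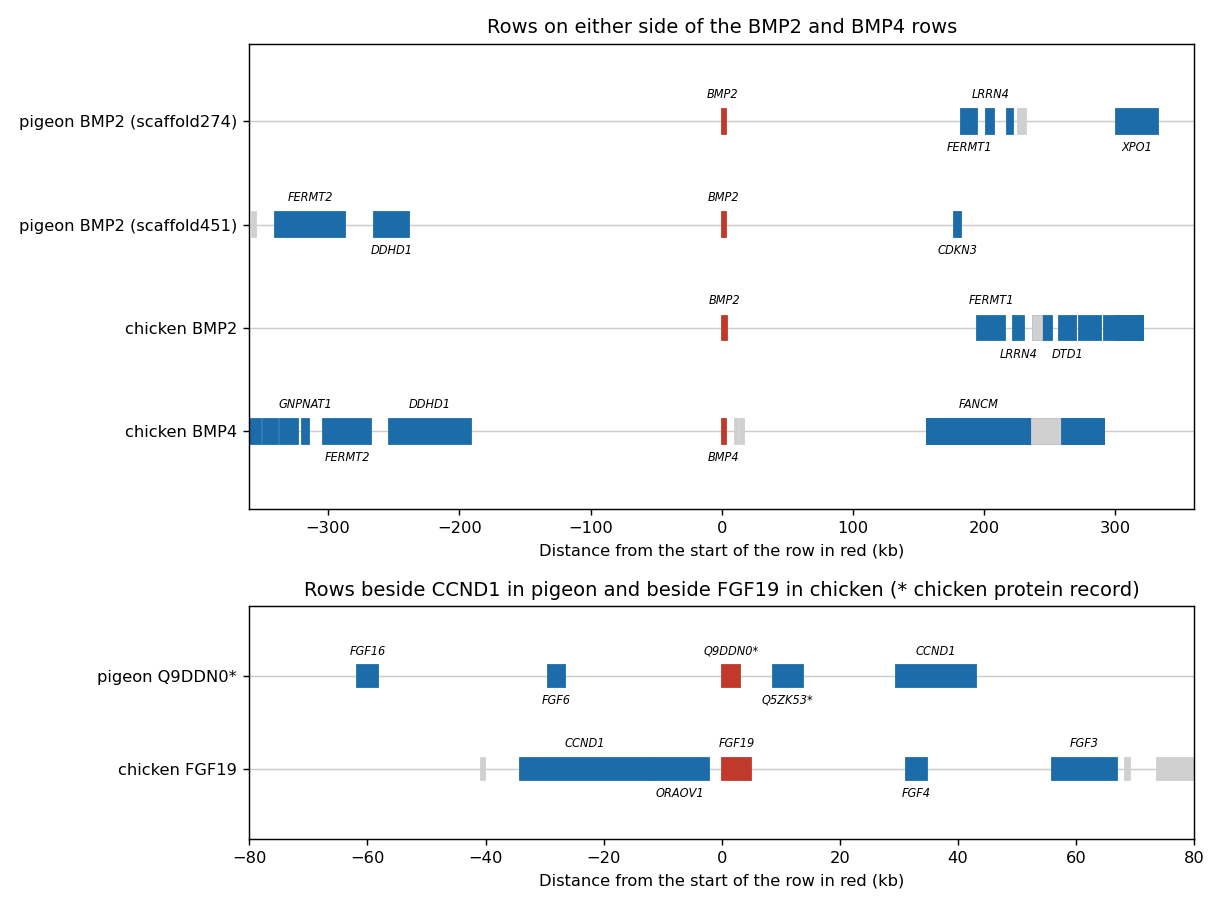
Distance in kb of neighbouring rows from the start of the row in red, for the pigeon and chicken BMP2 and BMP4 rows (top) and for the pigeon row Q9DDN0_CHICK and chicken FGF19 (bottom), with rows bearing a gene symbol or protein record in blue and other rows in grey. Some symbols are left out of the upper panel to keep labels apart. FERMT1 and LRRN4 lie beside pigeon BMP2 on scaffold274 and chicken BMP2, FERMT2 and DDHD1 beside pigeon BMP2 on scaffold451 and chicken BMP4, and CCND1 beside both rows of the lower panel.

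FST was lower at E5 than at E3 in both species, among the lowest changes of each table. In pigeon (Cli_R005312, scaffold22 from 2137336 to 2143070) its FPKM was 18.0 at E3, 2.84 at E5 and 0.345 at E8. In chicken (XLOC_023466, chromosome Z from 15391867 to 15399005) it was 3.22, 0.264 and 0.00958 at these stages. The change at E5 against E3 was −2.31 in pigeon, the 8th lowest of 11948, and −1.74 in chicken, the 28th lowest of 14490. At E8 against E5 it was −1.51 in pigeon and −0.32 in chicken, the second of which is below the size counted. From 0.264 FPKM at E5 no fall could reach 1 on this scale, so the chicken row could not be counted as lower there. With a pseudocount of 5 the pigeon change at E8 against E5 was −0.55, and the chicken changes were −0.64 at E5 against E3 and −0.71 at E8 against E3, all under 1 in size. By E5, 60.4% of the net change had been reached in pigeon and 84.3% in chicken. These shares depend on the pseudocount. With 0.1, the changes at E5 against E3 and at E8 against E5 were −2.63 and −2.72 in pigeon. In chicken they were −3.19 and −1.73. At E8 the chicken value was near the floor of its table, with 64 nonzero rows below it, and a plain ratio to that value is not given.

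ISM1 was lower by at least 1 at each later stage in both species. In pigeon (Cli_R010866, scaffold490 from 916861 to 932109) its FPKM was 12.9 at E3, 2.61 at E5 and 0.547 at E8. In chicken (XLOC_014260, chromosome 3 from 13620667 to 13640751) it was 6.35, 2.03 and 0.371. The change at E5 against E3 was −1.95 in pigeon, the 19th lowest of 11948, and −1.28 in chicken, the 72nd lowest of 14490. At E8 against E5 it was −1.22 in pigeon and −1.14 in chicken. With a pseudocount of 5 these E8 changes were −0.46 in pigeon and −0.39 in chicken, and the chicken change at E5 against E3 was −0.69, all under 1 in size. By E5, 61.4% of the net change had been reached in pigeon and 52.8% in chicken. These shares also depend on the pseudocount. With 0.1, the changes at E5 against E3 and at E8 against E5 were −2.26 and −2.07 in pigeon. In chicken they were −1.60 and −2.18, so the larger change then came after E5.

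The depth behind a value is unknown, since neither the labels nor the tables state read totals. As a stand-in, pigeon values were expressed in smallest steps, 1 step being the lowest nonzero FPKM at that stage among models within 5% of the row's length. By this measure pigeon FST rested on 133, 30.7 and 2.21 smallest steps at E3, E5 and E8, and ISM1 on 116, 34.6 and 4.29. The E8 values of both antagonists thus stand on few steps, while those of the BMP2 rows stand on 123 (scaffold274) and 28.7 (scaffold451). Steps are not reads, and chicken rows, listed without model lengths, could not be treated in this way.

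**Figure D3:**
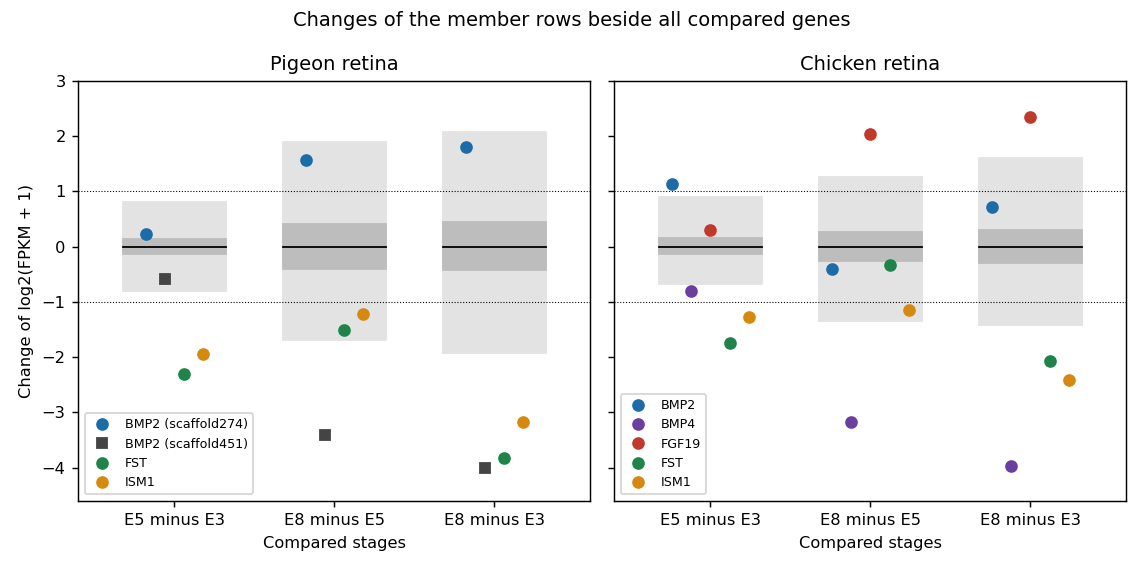
Change of log2(FPKM + 1) of each member row (coloured points) between stages in pigeon (left) and chicken (right), over the middle 95% (light grey), the middle 50% (dark grey) and the median (black line) of all compared genes, with dotted lines at the size counted, 1 up or down. At E5 against E3, FST and ISM1 lie below the light bars in both species, and at E8 against E5 chicken FGF19 lies above and chicken BMP4 below them.

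Pigeon and chicken values come from separate normalisations, so changes within a species were compared and levels were not. Among symbols listed once in both tables, the change differed between species by at least 1 in 2.63% of 5638 genes at E5 against E3 and in 8.11% of 5621 at E8 against E5. The pigeon minus chicken difference for FST was −0.57 at E5 against E3 and −1.19 at E8 against E5, the second of which is past that size. It depended on the pseudocount, since the first was 0.56 and the second −0.99 with a pseudocount of 0.1. With a pseudocount of 1, the chicken change in the second could not reach 1 in size, since chicken FST was at 0.264 FPKM at E5. For ISM1 the differences were −0.67 and −0.08, both under 1. The BMP2 row on scaffold274 differed from chicken BMP2 by −0.90 and then by 1.99. None of these differences has a replicate check.

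Genes with the most similar course were found by the distance between their 2 stage-to-stage changes and those of a member, in log2 units, among genes listed once that reached an FPKM of 5. Such distances rest on 3 stages and describe these values alone. They use log2(FPKM + 1), so a near gene can differ in its plain FPKM ratios where either gene is low. In pigeon, the nearest of 6512 genes to FST was ISM1 (0.46), followed by IGFBP2 (0.76), which encodes a binding protein of insulin-like growth factors. IGFBP2 (0.39) and FST (0.46) were among the 3 genes nearest to pigeon ISM1. Over the 4 changes of both species, the nearest of 4797 genes to FST were ISM1 (1.05), IGFBP2 (1.43) and PAX2 (1.69), and the nearest of these genes to ISM1 were PAX2 (1.09), NPR3 (1.16) and ENC1 (1.31). FST, although at a smaller distance from ISM1 (1.05), was not among the genes searched, since it stayed under an FPKM of 5 in chicken. PAX2, a transcription factor of the optic stalk and ventral eye, was thus among the 3 nearest genes to both antagonists, though at distances above 1. In chicken alone, among 7649 genes, the nearest to FST were GIP (0.37), WNT9B (0.39) and SCARNA20 (0.46), and to ISM1 AP1S3 (0.12), SLC1A7 (0.13) and EDN1 (0.18). GIP had an FPKM of 30.0, 10.3 and 9.63 at E3, E5 and E8, where chicken FST had 3.22, 0.264 and 0.00958. Their plain ratios were thus unlike.

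The ligands had other neighbours. The nearest genes to chicken BMP4 were CLEC19A (0.45), FIGF (0.50) and NECAB2 (0.56), to BMP2 EMILIN3 (0.12), RERG (0.17) and DHRS3 (0.18), and to FGF19 CNRIP1 (0.06), CDH12 (0.15) and LNX1 (0.16). The nearest to pigeon BMP2 on scaffold451 were ATOH8 (0.06), PLXDC2 (0.16) and RGR (0.16). The nearest to that on scaffold274 were RNF4 (0.04), CNTN3 (0.07) and NHS (0.08).

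The other genes of these pathways were described by 12 lists of 143 genes. At E8 against E3, 8 of 46 compared list genes were higher and 18 were lower in pigeon, with a median change of −0.67, and 8 of 81 were higher and 17 lower in chicken, with a median of −0.35. Over all genes in this comparison, 9.39% were higher and 8.58% lower in pigeon, with a median of 0.00, and 6.65% were higher and 5.29% lower in chicken, with a median of −0.01. The counts below are for the same interval, and the named genes are among those with the largest changes of each list.

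Other BMP and GDF ligands were lower in 2 of 3 compared genes in pigeon and 2 of 4 in chicken, with none higher. BMP5 in chicken had an FPKM of 10.5, 14.6 and 1.73 at E3, E5 and E8, and BMP7 had 48.5, 37.3 and 20.4. Most BMP receptors, co-receptors and receptor SMADs did not reach a change of 1. In that list 1 of 7 genes was lower in pigeon and 2 of 12 in chicken, with none higher. The activin and BMP receptor ACVR2B had changes of −0.89 in pigeon and −1.02 in chicken, the co-receptor RGMB had −0.48 in pigeon, and RGMA had −1.10 in chicken.

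Among secreted BMP antagonists and modulators other than FST, 3 of 10 genes were higher and 2 lower in pigeon, and 3 of 12 were higher and 0 lower in chicken. FSTL5, which encodes a follistatin-like protein, went the other way from FST in both species, with net changes of 2.69 in pigeon and 2.93 in chicken, and VWC2, which encodes a BMP-binding protein, had 2.38 in chicken. Of the BMP target and feedback genes, 2 of 3 were higher in pigeon (BAMBI and HEY1), and 2 of 8 were higher and 1 lower in chicken. BAMBI, which encodes a decoy receptor induced by BMP signals, had net changes of 1.45 in pigeon and 1.52 in chicken, and HEY1, a transcription factor gene also induced by Notch, had 1.96 and 1.41.

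The list of activin, nodal and TGF-beta ligands includes proteins that follistatin binds. In it, 1 of 3 compared genes was higher and 1 lower in pigeon, and neither of the 2 compared in chicken reached 1. These counts hold no activin gene, since INHBA stayed under an FPKM of 1 in both species and INHBB and INHBC were not matched. TGFB3 had changes of −1.52 in pigeon and −0.71 in chicken. A pigeon row named GDF1, matched as an older symbol of GDF3, had 2.19.

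Other secreted FGF ligands split, with 1 of 3 higher and 1 lower in pigeon and 1 of 7 higher and 1 lower in chicken. The same genes were named in both species. FGF9, a ligand found in the developing retina, had 1.13, 1.63 and 18.0 FPKM at E3, E5 and E8 in pigeon and 0.234, 1.17 and 7.32 in chicken, so that it was higher at E8, as was FGF19 in chicken. FGF7, a ligand made in mesenchyme, had 14.6, 14.1 and 0.746 in pigeon and 18.2, 8.12 and 2.30 in chicken.

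Of the FGF receptors and cofactors, 4 of 5 were lower in pigeon and 4 of 7 in chicken, with none higher. FLRT3, a membrane protein that binds FGF receptors, had changes of −2.83 in pigeon and −2.44 in chicken, FGFRL1, a receptor without a kinase domain, had −1.92 in pigeon, and FGFR2 had −2.14 in chicken. Of the FGF target and feedback genes, 3 of 6 were lower in pigeon and 0 of 8 in chicken, although all 8 chicken changes were negative. ETV4, a transcription factor gene induced by FGF, had changes of −2.73 in pigeon and −0.69 in chicken, IL17RD (Sef), an inhibitor of FGF signalling, had −2.64 in pigeon, and SPRED2, another inhibitor, had −0.52 in chicken. FGF19 in chicken, at its highest at E8, stood beside 4 lower receptors and cofactors, FGFR2 and FLRT3 among them, and no compared target gene past 1. Of the 12 target genes 9 were matched in chicken, and IL17RD was not among them. Of the 15 receptor and cofactor genes 11 were matched there, and FGFR3 and FGFR4 were not among them. KLB, a cofactor in that list, stayed under an FPKM of 1 (0.444, 0.764 and 0.745 at E3, E5 and E8) and was not compared. A response to FGF19 was not tested.

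**Figure D4:**
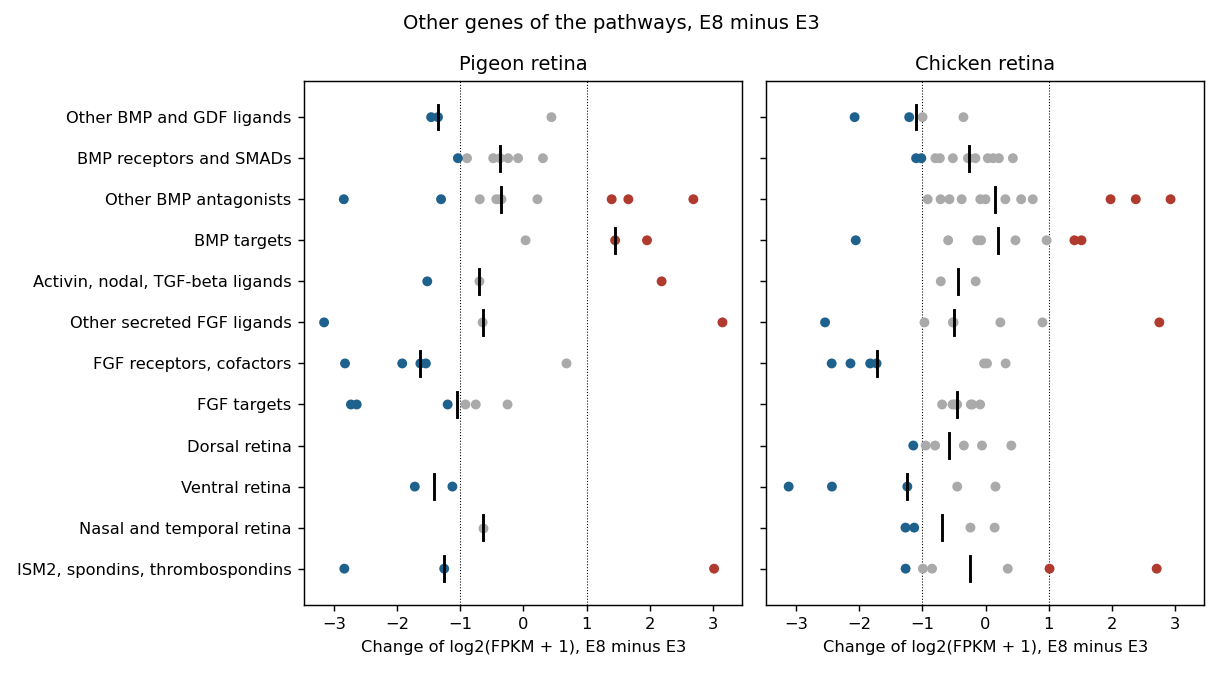
Change of log2(FPKM + 1) at E8 against E3 of each gene (points, blue where lower and red where higher by at least 1, grey otherwise) in the 12 pathway lists, with the list median as a black bar, in pigeon (left) and chicken (right). Most compared FGF receptors and cofactors lie below −1 in both panels, and the dorsal list has chicken points alone because 0 of its 6 genes were matched in pigeon.

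Regional genes of the retina were matched mostly in chicken. Of the 6 dorsal genes, 1 was lower there, EFNB2, a membrane-bound ephrin, with a change of −1.14. TBX5, known as a target of BMP4 in the dorsal retina, had an FPKM of 33.8, 20.9 and 17.0 at E3, E5 and E8, while BMP4 had 37.4, 21.1 and 1.46. At E5 against E3 the changes were −0.67 for TBX5 and −0.80 for BMP4, and at E8 against E5 they were −0.28 and −3.17. A link between the 2 genes was not tested. Ventral genes were lower in 2 of 2 compared in pigeon and 3 of 5 in chicken. PAX2 had changes of −1.72 in pigeon and −2.43 in chicken, VAX2 had −1.13 in pigeon, and ALDH1A3, a retinaldehyde dehydrogenase gene named ALDH6 in the chicken table, had −3.12 in chicken. Nasal and temporal genes were lower in 0 of 1 in pigeon and 2 of 4 in chicken, with EFNA5, which encodes an ephrin, at −0.64 in pigeon and −1.13 in chicken.

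Genes related to ISM1 by their thrombospondin repeats went both ways. Of these, 1 of 3 was higher and 2 lower in pigeon, and 2 of 6 were higher and 1 lower in chicken. RSPO2, an enhancer of Wnt signalling, had net changes of 3.02 in pigeon and 2.71 in chicken. SPON2 in pigeon had 7.49, 0.633 and 0.189 FPKM at E3, E5 and E8, and THBS1 in chicken had a change of −1.27. ISM2, the other isthmin gene, had 14.3, 16.0 and 5.41 FPKM in pigeon and 4.14, 3.41 and 1.86 in chicken. ISM2 was added to the named genes after its values were seen.

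Markers of the retina were present, and markers of other tissues moved with the stages. Retinal progenitor markers summed to between 853 and 1164 FPKM over 3 pigeon rows and between 796 and 953 over 7 chicken rows, with none at 0. Ganglion cell markers summed to 96.4, 209 and 2349 FPKM at E3, E5 and E8 in pigeon (5 rows) and to 102, 299 and 1109 in chicken (9 rows, POU4F3 at 0). ATOH7 alone gave 1827 FPKM of the pigeon sum and 555 of the chicken sum at E8. At E8 against E3, 5 of 5 compared markers of this list were higher in pigeon and 8 of 8 in chicken. Whole retinas hold many cell types, so a lower level can be fewer cells of a type or less RNA per cell, which cannot be told apart.

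Pigment epithelium markers summed to 109, 127 and 4.81 FPKM in pigeon (6 rows, MLANA at 0 at E8) and to 57.5, 240.3 and 14.7 in chicken (12 rows, PMEL at 0 throughout and TTR at 0 at E3 and E8). Periocular mesenchyme markers summed to 189, 155 and 36.1 in pigeon (5 rows) and to 158, 227 and 20.8 in chicken (10 rows, PRRX1 at 0 at E8). The pigeon sum at E8 was mostly PDGFRA, with 25.2 FPKM, against 5.26 at E5. At E8 against E5, 4 of 4 compared pigment epithelium markers were lower in pigeon and 8 of 8 in chicken, and 3 of 5 mesenchyme markers were lower in pigeon and 7 of 9 in chicken. Over that interval the pigeon BMP2 row on scaffold451, chicken BMP4, pigeon FST and ISM1 in both species were lower by at least 1 too. The part of these tissues in the E8 values was not tested.

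From E3 to E5 in chicken, the pigment epithelium and mesenchyme sums were higher, while single mesenchyme markers went both ways. Of the members, BMP2 was higher and FST and ISM1 lower by at least 1. FGF19 (0.31) and BMP4 (−0.80) stayed under the size counted. Pigment epithelium markers were higher in 6 of 8 compared genes, with none lower, and mesenchyme markers were higher in 2 of 10 and lower in 1 (DCN, −1.72). Lens markers summed to 11.2, 8.48 and 15.0 FPKM in pigeon (6 rows, BFSP1 at 0 at E5 and CRYAA at 0 at E8) and to 695, 778 and 62.1 in chicken (12 rows, CRYBA2 and FOXE3 at 0 at E8). CRYAB made up most of both E8 sums, with 12.5 FPKM in pigeon (0.622 at E5) and 52.1 in chicken (45.8 at E5). At E8 against E5, 1 of 3 compared lens markers was higher and 1 lower in pigeon. In chicken 4 of 7 were lower and 0 higher. Erythroid markers summed to 2530, 853 and 18.6 in pigeon (3 rows) and to 799, 1927 and 124 in chicken (6 rows). Endothelial markers summed to 28.8, 18.2 and 2.95 in pigeon (5 rows, ESAM at 0 at E8) and to 40.9, 53.8 and 36.8 in chicken (9 rows). At E8 against E5, 2 of 4 compared endothelial markers were lower in pigeon and 5 of 7 in chicken, where KDR (18.3 FPKM) and PECAM1 (15.3) made up most of the E8 sum. All 5 chicken sums of these other tissues were thus above their E3 value at E5, as were BMP2 and FGF19, while FST, ISM1 and BMP4 were below theirs. The chicken lens sum was mostly ASL1, with 582 FPKM at E3 and 625 at E5, a change of 0.10. By sign alone, whatever the size, compared single markers went both ways in each of the 5 chicken lists except the erythroid one. Counted at 1 in size, mesenchyme markers alone went both ways. Lens markers were then higher in 3 of 9 with none lower, and 0 of 7 endothelial markers were higher or lower. In pigeon at E5, the erythroid, endothelial, mesenchyme and lens sums were below their E3 values, as were FST, ISM1 and BMP2 on scaffold451. Optic stalk and optic nerve markers, which include PAX2, summed to 26.7, 18.7 and 50.7 in pigeon (4 rows) and to 72.4, 38.8 and 23.3 in chicken (5 rows). Both sums were lower at E5 than at E3, as were FST and ISM1, but the single markers split. Of 3 compared at E5 against E3 in each species, 1 was lower (PAX2) and 1 higher (MBP in pigeon, SOX10 in chicken). The pigeon sum at E8 was mostly MBP, with 1.94, 6.87 and 44.2 FPKM at E3, E5 and E8, while PAX2 had 21.6, 10.1 and 5.84. The part of these tissues in the members' values was not tested.

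**Figure D5:**
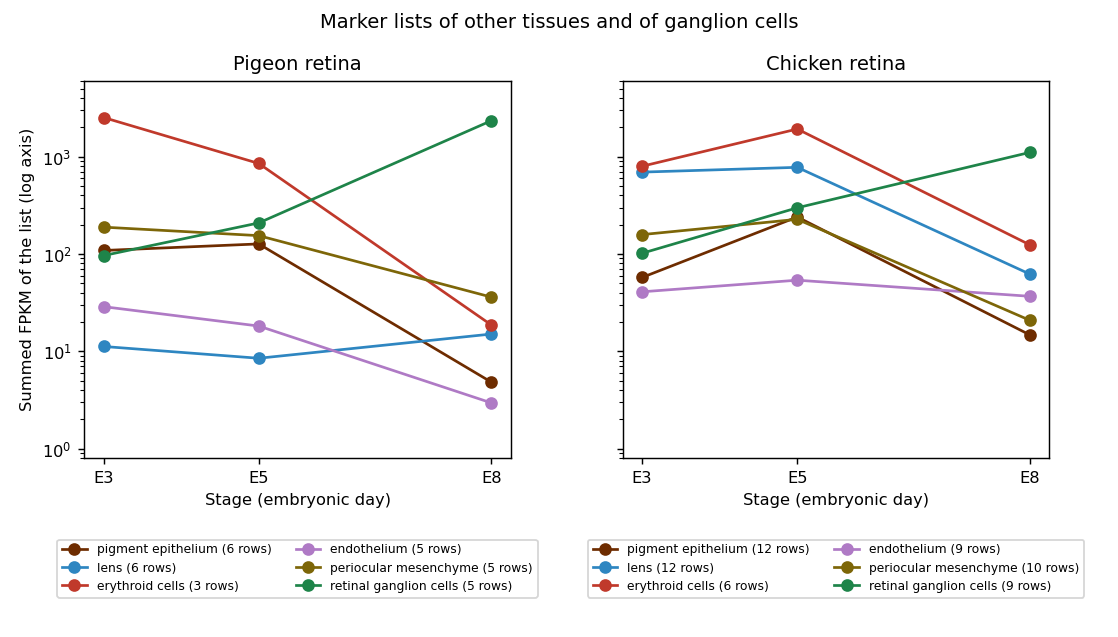
Summed FPKM (log axis) of marker lists of 5 other tissues and of retinal ganglion cells against embryonic day in pigeon (left) and chicken (right), with the number of matched rows in each legend. The ganglion cell sum is highest at E8 in both panels, and the pigment epithelium sum is 4.81 in pigeon and 14.7 in chicken at E8, below its E3 value in each.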

How the data were processed

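Whole retinas were collected in Trizol, and 1 µg of total RNA per library went into a stranded TruSeq mRNA kit, per the labels' protocols. TopHat2, Bowtie2, Cufflinks and Cuffdiff are named in the submitters' processing notes, with no version, order or setting. Genome builds: not given in the sources used here. Each species has 1 deposited table of FPKM, computed by the authors, with 1 pooled column per stage, per the file headers. The rows number 16652 for pigeon and 24708 for chicken. Pigeon model lengths, also deposited, have a median of 957 bases and are multiples of 3 in 89.9% of rows. Starts were converted to count from 1.

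The planned limma test was not possible, since no column holds a single library. Changes were computed in Python 3.11.15 with pandas 2.3.3 and numpy 2.4.6, and figures were drawn with matplotlib 3.10.9. Counting was tested on simulated data with 200 genes changed 4-fold. The members and lists were chosen with earlier results of these data known. Of the pathway list genes, the text names up to 2 per list and species, those with the largest change at E8 against E3 among genes listed once with an FPKM of at least 5 at the higher stage, and the 3 genes most like each member row, except that a few genes this rule picks are not reported here. A list gene was matched by symbol or older symbol, and 62 of 143 were matched in pigeon and 116 in chicken. Alternatives were pseudocounts of 0.1 and 5, no filter, an FPKM of at least 5, values of 0 included, median-ratio scaling, quantile normalisation and rows of a symbol summed. No gene sequence was used.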

Additional observations from a re-analysis of the deposited data

Results flagged for a closer look

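Pigeon BMP2 on scaffold274 and chicken BMP2 went in opposite directions at E8 against E5, with changes of 1.57 in pigeon and −0.41 in chicken, a pigeon minus chicken difference of 1.99 that was not tested. Pigeon BMP2 on scaffold451 and chicken BMP2 went in opposite directions at E5 against E3, with changes of −0.59 in pigeon and 1.13 in chicken, a difference of −1.72 that was not tested. That pigeon row shares 0 flanking genes with BMP2 and 2 with BMP4 in the RefSeq annotation, and chicken BMP4 had a change of −0.80. Which gene the row holds was not tested. A signal outside the named members appeared in the pigeon row Q9DDN0_CHICK beside CCND1, whose FPKM was 179 at E8, against 25.3 at E3, a change of 2.77.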

How the results depend on the processing

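The changes of the member rows and their species differences make up 35 results. Over 8 alternatives they gave 275 values, of which 255 kept their direction and their side of 1. Under median-ratio scaling all 35 did so. No filter, values of 0 included and an FPKM of at least 5 cannot alter the change of a member row. Their 35, 35 and 30 values repeat the main ones and are no check, though they are part of the 255. Summing rows of a symbol could alter only the results of pigeon BMP2. With rows of a symbol summed, the changes of pigeon BMP2 on scaffold274 became −0.51, −1.09 and −1.60 (E5 against E3, E8 against E5, E8 against E3), its difference from chicken BMP2 became −1.64 and −0.68 (E5 against E3, E8 against E5), and that of scaffold451 at E8 against E5 also became −0.68, since one summed value replaces both rows. With a pseudocount of 5, which shrinks changes of low values, E8 against E5 became −0.55 for pigeon FST and −0.46 for pigeon ISM1, and E5 against E3 became 0.57 for chicken BMP2, −0.64 for chicken FST and −0.69 for chicken ISM1. Chicken ISM1 became −0.39 at E8 against E5, chicken FST −0.71 at E8 against E3, and the FST difference at E8 against E5 −0.48. With a pseudocount of 0.1, chicken FST became −1.73 at E8 against E5, the FST difference 0.56 at E5 against E3 and −0.99 at E8 against E5, the ISM1 difference 0.11 at E8 against E5, and the scaffold274 difference −1.21 at E5 against E3. Quantile normalisation gave an ISM1 difference of 0.11 at E8 against E5, and the cause was not tested. At an FPKM of at least 5, 30 values could be had, and those of chicken FST could not.

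Counts of genes past 1 depended on the pseudocount. At E5 against E3 the pigeon count of 344 became 693 with 0.1, 113 with 5 and 558 with values of 0 included, and the chicken count of 431 became 1134 with 0.1 and 123 with 5. At E8 against E5 the pigeon count of 1807 became 1049 with 5, and the chicken count of 1306 became 2421 with 0.1, 421 with 5 and 801 at an FPKM of at least 5. At E8 against E3 the pigeon count of 2118 became 1227 with 5, and the chicken count of 1725 became 2938 with 0.1, 626 with 5 and 1077 at an FPKM of at least 5.

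No paired analysis was possible because the tables hold 1 pooled value per stage and no value per library. For the same reason leaving out each replicate in turn and the fit with a replicate block were not run. Depth is unknown, and the lowest member values, FST at E8 in both species and ISM1 at E8, limit what can be said of changes after E5.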

Other observations

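Several names of pathway genes stood in more than 1 pigeon row and entered no count above. Whether rows that share a name hold the same gene was not tested, so they are not repeats of 1 result. The 3 pigeon rows named FGFR2 had FPKM of 25.6, 15.5 and 4.36 (scaffold153), 20.6, 17.5 and 1.76 (scaffold5) and 22.5, 23.2 and 6.60 (scaffold79) at E3, E5 and E8, so that each was lowest at E8, as was FGFR2 in chicken. The 4 pigeon rows named BMPR1A, which encodes a BMP receptor, had 23.4 FPKM at E8, against 47.3 at E3 (scaffold3), 90.8 at E8, against 54.3 at E3 (scaffold403), 46.0 at E8, against 46.1 at E3 (scaffold310) and 65.3 at E8, against 53.0 at E3 (scaffold543).

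The most abundant pigeon row named BMP7 (scaffold36) had 149, 141 and 55.1 FPKM at the 3 stages, and a second (scaffold565) had 4.72, 4.23 and 0.616. The pigeon row FGF8_CHICK on scaffold262 had 120.2, 119 and 62.0 FPKM, and chicken FGF8, which encodes a ligand of early eye patterning, had 60.8, 46.1 and 30.6. A pigeon row named FGF16 on scaffold503, which lies near Q9DDN0_CHICK, had 1.84, 4.70 and 51.3 FPKM, and chicken FGF3, which lies near FGF19, had 5.34, 2.74 and 10.8. These rows were chosen after their values were seen.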
